A study of Homo sapiens with 6 samples.

Results

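The regions described here are the broadest H3K27ac domains of Calu-3 cells, an established human airway epithelial line from a lung adenocarcinoma. A domain was any called H3K27ac region with an end minus start of at least 8000 bp. There were 534 of them among 34638 H3K27ac regions, or 1.54%. They came from a chromatin immunoprecipitation sequencing (ChIP-seq) study of EHF, a transcription factor that belongs to the ETS family and is made in epithelia. The study holds 6 libraries of Calu-3 cells grown in low-glucose medium with fetal bovine serum, of which 1 was made with an H3K27ac antibody, 1 with an H3K4me1 antibody, 2 with an EHF antibody and 2 without an antibody as input. All libraries share the cell line and there is no other condition. Whether separate cultures gave the EHF replicates is not in the labels. Only the 4 interval lists of the ChIP libraries were used here, in hg19 coordinates. The lists held 1537 EHF peaks in replicate 1, 5216 in replicate 2, 31950 H3K4me1 regions and the H3K27ac regions.

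H3K27ac is the acetylation of lysine 27 of histone H3 and is found at active enhancers and promoters. H3K4me1 is the monomethylation of lysine 4 of the same histone and is typical of enhancers, where it often lies beside a nucleosome-poor centre in which transcription factors bind. Very long runs of H3K27ac, known as super-enhancers or stretch enhancers when defined by signal or length, often lie near genes that set a cell's identity and can hold several separate enhancers. The width rule used here is simpler than those definitions, and promoters were not set apart from enhancers. Gene names, genomic features and sequence were not analysed for these positions.

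The width of the H3K27ac region chose the domains, so widths and H3K27ac scores are given as a description. The domains were 8005 to 44049 bp wide, with a median of 10525.5 bp and quartiles of 8993 and 13127 bp. By class, 232 were under 10000 bp, 216 were from 10000 to under 15000 bp, 47 from 15000 to under 20000 bp and 39 were of 20000 bp or more. They covered 6.50 of the 64.9 Mb called for H3K27ac, or 10.02%, and carried 16.3% of the summed score. The score is the authors' tag count of an interval after scaling the library to 10000000 tags. Its median per kb was 64.7 in domains and 27.8 in narrower regions, with 49.2 in the next class down, the 2491 regions of 4000 to under 8000 bp. The limit of 8000 bp did not fall in a gap. The narrowest domains were 8005, 8008 and 8009 bp wide and the widest regions outside the rule were 7987, 7972 and 7971 bp wide. There were 16 regions within 100 bp above the limit and 20 within 100 bp below it.

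EHF peaks were found in 223 of the 534 domains, or 41.8% (exact 95% interval 37.5% to 46.1%), counting peaks of either replicate. Among all H3K27ac regions the share was 9.82%. In regions of 4000 to under 8000 bp it was 23.9%, with 7.87% for replicate 1 and 21.6% for replicate 2. In replicate 1, 81 domains held a peak, or 15.2% (12.2% to 18.5%), against 2.45% of narrower regions, where 2.65% of all regions did. In replicate 2, 209 domains held one, or 39.1% (34.98% to 43.4%), against 8.52% of narrower regions, where 8.99% of all regions did. Both lists had a peak in 67 domains, replicate 1 alone in 14 and replicate 2 alone in 142. An EHF site present in both lists, meaning that the peaks overlapped by at least 1 bp, lay in 61 domains, or 11.4% (8.85% to 14.4%), against 1.55% of narrower regions and 1.71% of all. The higher share in domains thus appeared in each replicate and for the sites they had in common. Regions are not replicates of a condition and each mark has 1 library. No p is therefore given, and all intervals cover counting error only. Both EHF lists were called against the same input library.

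H3K4me1 regions were present in 444 domains, or 83.1% (79.7% to 86.2%), against 33.7% of narrower regions and 34.5% of all regions. Regions of 4000 to under 8000 bp stood between, at 68.3%. More than 1 H3K4me1 region was the usual state. A single H3K4me1 region lay in 137 domains, 2 lay in 126, 3 in 92 and 4 in 61, while 13 domains held 5, 9 held 6, 5 held 7 and 1 held 8. At least 2 were thus present in 307 domains, or 57.5%, against 5.03% of narrower regions and 5.84% of all regions. Among regions of 4000 to under 8000 bp, 31.1% held at least 2. EHF sites were more sparse. Of the 534 domains, 159 held 1 site of either replicate, 52 held 2, 9 held 3, 2 held 4 and 1 held 9. At least 2 EHF sites lay in 64 domains, or 11.99%, against 0.516% of narrower regions and 0.693% of all. In regions of 4000 to under 8000 bp the share was 2.81%. By replicate, at least 2 peaks of replicate 1 lay in 5 domains, where 0.0491% of all regions held as many. At least 2 of replicate 2 lay in 57 domains, where 0.551% of all regions did, and at least 2 sites of both replicates lay in 2 domains, where 0.0173% of all regions did.

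Per kb of H3K27ac, however, the domains were not richer in either feature than all narrower regions pooled. The domains held 0.0132 EHF peaks of replicate 1 per kb and narrower regions 0.0145, a ratio of 0.909 (95% interval 0.720 to 1.14). For replicate 2 the densities were 0.0437 per kb in domains and 0.0521 in narrower regions, a ratio of 0.837 (0.739 to 0.946). With sites of either replicate the ratio was 0.819 (0.726 to 0.921). Sites common to both replicates gave 0.00969 per kb in domains and 0.00914 in narrower regions, a ratio of 1.06 (0.802 to 1.38), on the other side of equality with an interval that includes it. Set against regions of 4000 to under 8000 bp alone, the ratio for either replicate was 0.932 (0.811 to 1.07). EHF density in domains was therefore lower than in all narrower regions pooled, in replicate 2 and the combined list. The interval against the next width class includes equality. By peak centre the pooled ratios were 0.866 (0.764 to 0.978) in replicate 2 and 0.851 (0.754 to 0.957) for either replicate. The lower density did not hold against every width class. By centre, sites of either replicate numbered 0.0394 per kb under 1000 bp, below 0.0472 in domains, with overlapping intervals. They numbered 0.0651 from 1000 to under 2000 bp and 0.0580 from 2000 to under 4000 bp. Replicate 1 had 0.00772 under 1000 bp and 0.0132 in domains, with separate intervals.

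H3K4me1 regions were less dense in domains. There were 0.165 per kb in domains and 0.231 in narrower regions, a ratio of 0.714 (0.671 to 0.760). A short H3K27ac region gains from the 1 bp rule, because an H3K4me1 region that only touches it counts in full. When the centre of the H3K4me1 region had to lie inside, the densities were 0.161 per kb in domains and 0.199 in narrower regions, a ratio of 0.808 (0.758 to 0.861). Against regions of 4000 to under 8000 bp, also by centre, the ratio was 0.831 (0.772 to 0.893). Those regions had 0.194 per kb by centre, close to 0.195 in the domains under 10000 bp. The covered length differed less than the number. H3K4me1 covered 15.6% of domain bases and 15.3% of the bases of narrower regions, and 17.4% in the class of 4000 to under 8000 bp. The H3K4me1 regions that touched domains were longer, with a median of 694 bp (quartiles 501 and 1157 bp), against 638 bp (501 and 918 bp) for those that touched narrower regions only. Of those in domains 30.6% were at least 1000 bp long, against 21.7% of those in narrower regions.

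Within the domains, the pooled H3K4me1 density was lower in wider classes. By centre it was 0.195 per kb in domains of 8000 to under 10000 bp, 0.162 in those of 10000 to under 15000 bp, 0.130 in those of 15000 to under 20000 bp and 0.116 in those of 20000 bp or more. The share of bases in H3K4me1 followed the same order, at 18.4%, 15.5%, 13.9% and 11.6%. Medians over domains were in that order too, at 14.6%, 12.004%, 11.2% and 8.45% coverage, with quartiles of 6.02% and 26.8% in the narrowest class and 2.30% and 18.6% in the widest. Across the 534 domains, Spearman's rho of width was only -0.088 with coverage and -0.16 with regions per kb. The share of domains with any H3K4me1 region did not rise with width and was 83.6%, 82.9%, 85.1% and 79.5%. For EHF, replicate 2 was nearly level, at 0.0440, 0.0448, 0.0412 and 0.0421 peaks per kb. Replicate 1 had 0.0160, 0.0139, 0.00999 and 0.00861 per kb, but these rest on 33, 36, 8 and 9 peaks. With a near constant density, the share of domains with a replicate 2 peak grew with width, at 31.9%, 40.7%, 48.9% and 61.5%. The 39 domains of at least 20000 bp held 44 replicate 2 peaks, in 24 domains.

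**Figure D1:**
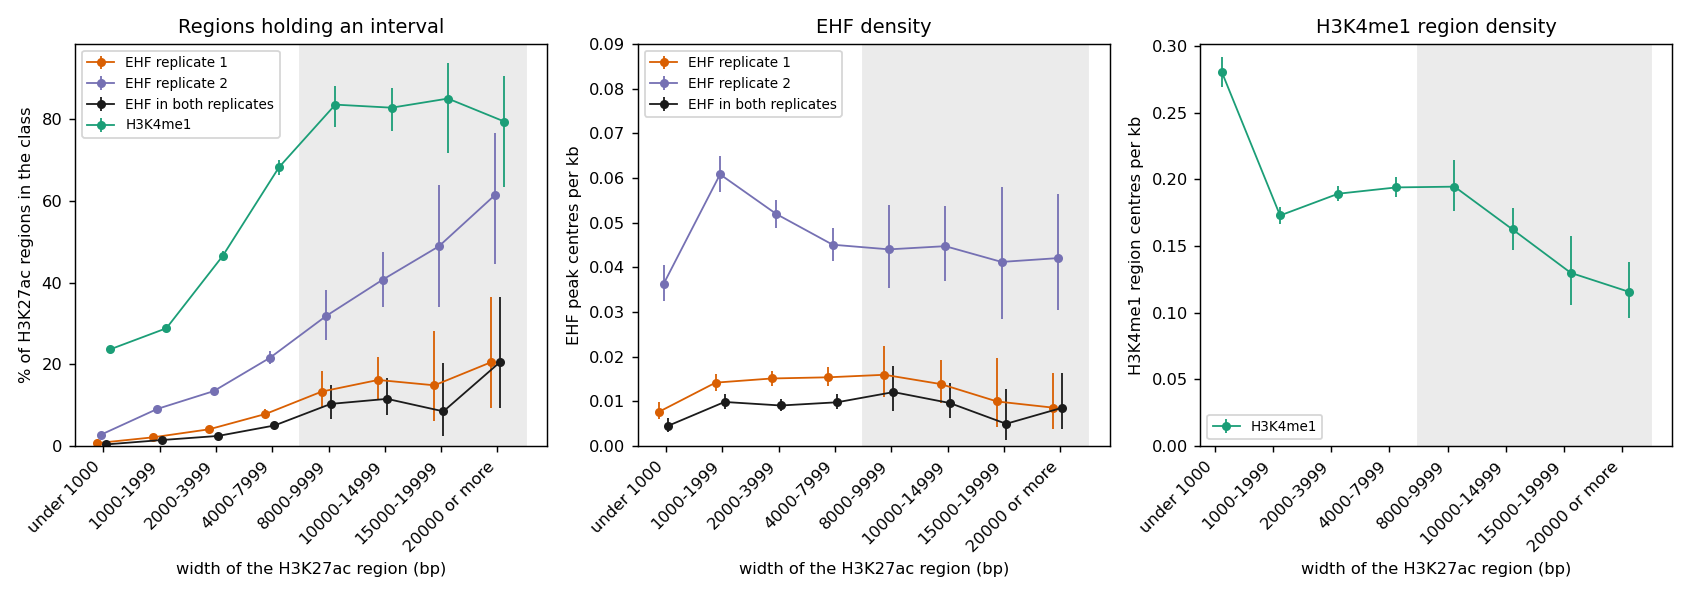
Share of H3K27ac regions that hold an interval of each list (left), EHF peak centres per kb (middle) and H3K4me1 region centres per kb (right), by width of the H3K27ac region; grey marks the domains of at least 8000 bp, and bars are exact 95% intervals of counting error (binomial left, Poisson middle and right). The shares rise with width up to the domains, whereas the densities of replicate 2 and of H3K4me1 in the widest class, 0.0421 and 0.116 per kb, stand beside 0.0451 and 0.194 per kb in regions of 4000 to under 8000 bp, with overlapping intervals for replicate 2 and separate ones for H3K4me1.

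EHF and H3K4me1 often occurred in the same domain. Both were present in 199 domains, or 37.3%, against 4.62% of all H3K27ac regions. Neither was present in 66 domains, or 12.4%, against 60.3% of all H3K27ac regions. The next width class stood between, as 435 of its 2491 regions held both and 630 held neither. Each feature alone was also more frequent in wider regions, so these shares do not by themselves show that the features go together. Of the 444 domains with H3K4me1, 44.8% held an EHF site of either replicate (40.1% to 49.6%), against 24 of the 90 without it, or 26.7% (17.9% to 37.0%). The median width was 10525.5 bp with H3K4me1 and 10483 bp without, so the groups differed little in length. Their median H3K27ac score per kb was 66.1 with H3K4me1 and 57.6 without, and its part in the difference was not tested. In replicate 1 the shares were 16.4% with H3K4me1 (13.1% to 20.2%) and 8.89% without (3.92% to 16.8%), and these intervals overlap. In replicate 2 they were 42.1% with it (37.5% to 46.9%) and 24.4% without (15.997% to 34.6%), and these do not. The same order was seen in each width class, with 37.6% against 18.4% below 10000 bp, 46.9% against 29.7% from 10000 to under 15000 bp and 59.2% against 40.0% (6 of 15 domains) above that. Within each of these classes the intervals overlap. In H3K27ac regions of 4000 to under 8000 bp the shares were 25.6% with H3K4me1 and 20.3% without. Whether the difference is larger in domains than in that class was not tested.

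Most EHF peaks in domains had H3K4me1 nearby, and so did most domain bases. Of all bases, 54.2% in domains and 48.4% in narrower regions lay within 2000 bp of an H3K4me1 region. In regions of 4000 to under 8000 bp alone it was 58.6%, above the domains. Of the 284 replicate 2 peaks in domains, 65.8% (60.01% to 71.3%) had an H3K4me1 region within 2000 bp of their centre, against 50.1% (48.4% to 51.9%) of the 3045 in narrower regions. Of the 86 replicate 1 peaks in domains it was 66.3% (55.3% to 76.1%), against 57.7% (54.3% to 61.1%) of 849 in narrower regions, with overlapping intervals. In domains the intervals of both replicates lay above the 54.2% of bases. In narrower regions the interval of replicate 1 also lay above the 48.4% of bases, and that of replicate 2 only just included it. Peaks that overlapped H3K4me1 by at least 1 bp were a minority in both lists. They made up 12.8% of replicate 1 peaks in domains and 12.01% in narrower regions, and 10.2% of replicate 2 peaks in domains against 8.60% in narrower regions. Beside the 15.6% of domain bases in H3K4me1, the replicate 2 share was lower (6.95% to 14.3%) and the interval of replicate 1 (6.56% to 21.7%) included it. In narrower regions the intervals of replicate 1 (9.90% to 14.4%) and replicate 2 (7.63% to 9.66%) both lay below the 15.3% of bases. A peak counts from 1 bp of overlap, so shares of peaks and of bases are unlike measures. Median EHF scores in domains were close to those in narrower regions, with 10.5 in domains and 10 in narrower regions for replicate 1, and 13 in domains and 12 in narrower regions for replicate 2. The upper quartile in replicate 2 was 18 in domains and 15 in narrower regions. Outside H3K27ac the medians were 9 in replicate 1 and 11 in replicate 2. Recurrence was 73.3% for replicate 1 peaks in domains (62.6% to 82.2%), against 62.9% in narrower regions (59.5% to 66.2%), and 22.2% for replicate 2 peaks in domains (17.5% to 27.5%), against 17.3% in narrower regions (16.01% to 18.7%). Both pairs of intervals overlap. Outside H3K27ac, recurrence was 28.4% for replicate 1 peaks and 9.38% for replicate 2 peaks.

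EHF peaks and H3K4me1 were placed differently along the domains. The outermost 1000 bp on either side had few EHF peaks, with 4.68 centres per Mb in replicate 1 (1.52 to 10.9) and 18.7 in replicate 2 (11.4 to 28.9). From 1000 to 2000 bp inside the edge, the densities were 16.9 per Mb in replicate 1 (9.99 to 26.6) and 47.8 in replicate 2 (35.6 to 62.8). Further in they stayed near that level, at 15.4 and 53.8 per Mb from 2000 to 4000 bp and at 13.4 and 43.9 per Mb deeper than 4000 bp, in replicates 1 and 2. The low edge zone thus showed in both replicates, on 5 and 20 peaks. H3K4me1 had no such low edge. Its coverage was 18.1% in the outermost 1000 bp, 17.01% from 1000 to 2000 bp, 15.8% from 2000 to 4000 bp and 13.6% deeper than 4000 bp. Every domain gave the same length to each zone down to 4000 bp. The deepest zone drew more on wide domains, whose coverage was lower, so its value mixes depth with domain width.

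Outside the domains, in bases that no H3K27ac region covered, both features dropped. H3K4me1 covered 6.08% of the first 1000 bp, 3.75% of the next 1000 bp, 2.99% from 2000 to 5000 bp and 2.79% from 5000 to 10000 bp. EHF peaks there were rare. Replicate 1 had 2 peak centres and replicate 2 had 10 within 10000 bp of a domain edge outside H3K27ac. The caller required an EHF peak to exceed the surrounding 10 kb 4-fold, a rule that set aside 274 putative peaks in replicate 1 and 239 in replicate 2 over the whole genome. Its part in the spacing of EHF peaks within domains was not tested. Neighbouring EHF sites of a domain had centres a median of 3213 bp apart (quartiles 1536 and 6801 bp, 84 pairs), and neighbouring H3K4me1 regions 2838 bp (1908 and 4323 bp, 627 pairs).

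**Figure D2:**
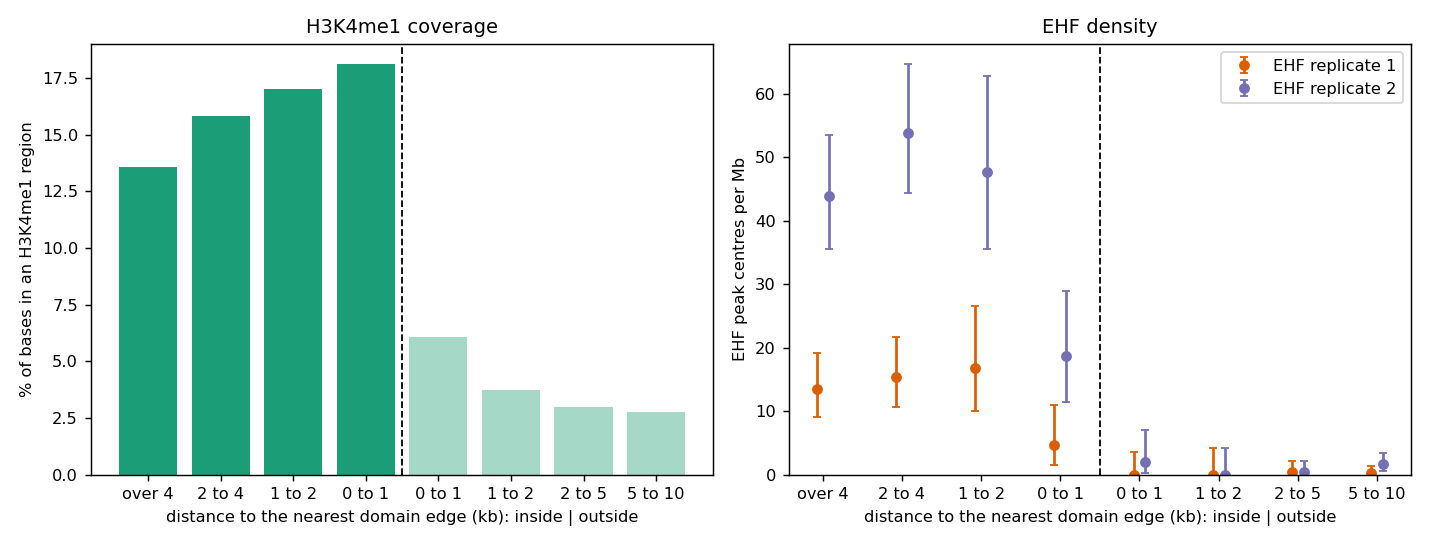
H3K4me1 coverage in percent of bases (left) and EHF peak centres per Mb with exact Poisson 95% intervals (right), by distance in kb to the nearest edge of a domain; the dashed line is the edge, and zones outside leave out every H3K27ac region. H3K4me1 is highest, at 18.1%, in the outermost 1000 bp inside, where EHF density is lowest among the inside zones in both replicates.

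Domains with more H3K27ac per kb held EHF more often. The 534 domains were divided into 3 groups of 178 by score per kb, at 20.9 to 53.5, 53.8 to 77.0 and 77.4 to 354. A replicate 1 peak was found in 7.87%, 13.5% and 24.2% of domains from the low to the high group. Replicate 2 peaks were found in 18.5%, 37.6% and 61.2%, and sites of both replicates in 3.93%, 11.8% and 18.5%. Widths differed little, with medians of 9855.5, 10753 and 10883 bp. Densities followed, at 19.0, 35.8 and 72.7 replicate 2 peaks per Mb and 7.49, 12.2 and 19.2 replicate 1 peaks per Mb. H3K4me1 coverage was 12.9%, 16.8% and 16.9%. The same order of EHF was present in regions of 4000 to under 8000 bp, where replicate 2 peaks lay in 11.2%, 19.0% and 34.7% of the low, middle and high groups by score per kb.

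The median score per kb was 77.6 in the 223 domains with EHF (quartiles 59.6 and 98.9) and 57.1 in the 311 without (44.0 and 73.8). It was 91.2 in the 64 domains with at least 2 EHF sites. Domains with H3K4me1 had a median of 66.1 and those without it 57.6. The highest score per kb, 354, was at 38437312 to 38445557 on chromosome 17. The next highest, 289.7, was at 36067045 to 36079684 on the same chromosome and had no EHF peak. The first domain and the one at 38465414 to 38475288, with 199.7 per kb, each held 1 EHF peak of replicate 2 and none of replicate 1. Without these 2 domains, the high group held a replicate 2 peak in 60.1% of domains, and without chromosome 20 in 56.98%, and the order of the groups was the same in both cases.

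**Figure D3:**
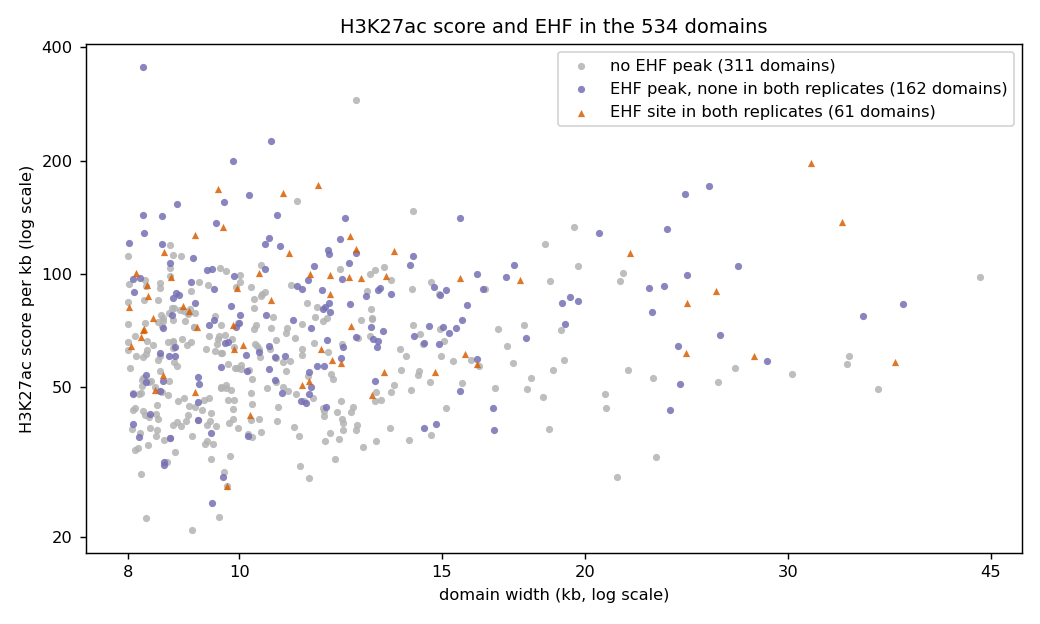
H3K27ac score per kb against width for each of the 534 domains, both on log scales, coloured by EHF. Domains without an EHF peak (grey, median 57.1 per kb) lie lower on average than those with one (median 77.6 per kb), with wide overlap at every width.

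The domain with the most EHF was on chromosome 20, at 56258787 to 56290172, 31386 bp wide with 197 score units per kb. It held 9 peaks of replicate 2, with scores of 11 to 26, and 1 of replicate 1, with a score of 11, which coincided with a replicate 2 peak of score 23. Its 6 H3K4me1 regions covered 17.1% of it, with none between 56272514 and 56287557. Next came the domain at 30278662 to 30312083 on the same chromosome, 33422 bp wide, with 4 peaks of replicate 2 and 2 of replicate 1. Both replicate 1 peaks recurred in replicate 2, with scores of 25 and 39 at 30292531 to 30292681, and of 10 and 13 at 30300576 to 30300726, in replicates 1 and 2. The first of these sites lay between H3K4me1 regions and more than 2000 bp from any.

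The only other domain with 2 sites of both replicates was at 33044967 to 33053380 on chromosome 17, and at 8414 bp it was near the lower width limit. In replicate 2 the sites were at 33047994 to 33048118 and 33048381 to 33048505. Replicate 1 scored them 8 and 11, and replicate 2 scored them 10 and 20. Its 3 H3K4me1 regions covered 23.3% of it and did not overlap the EHF peaks. Outside chromosome 20, a domain at 145008077 to 145028615 on chromosome 8 held 4 replicate 2 peaks with scores of 11 to 18 and none of replicate 1. Of the 9 domains with 3 EHF sites, the 7 widest complete the 10 richest and were on chromosomes 20 (2 of them, at 52718771 to 52744725 and 52746011 to 52758760), 3, 1, 8 and 10 (2 of them). The chromosome 20 pair each held 1 site found in both replicates. Those on chromosome 3 (185043161 to 185062244), chromosome 1 (156083172 to 156100921) and chromosome 8 (38255483 to 38268114) had their 3 peaks in replicate 2 alone. Those on chromosome 10, at 75664079 to 75676063 and 3844615 to 3856227, each had 1 peak of replicate 1 and 2 of replicate 2, without overlap. In the first, the replicate 1 peak (75668974 to 75669124) lay close to a replicate 2 peak (75668744 to 75668868). Its count of 3 sites thus rests on the 1 bp rule.

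**Figure D4:**
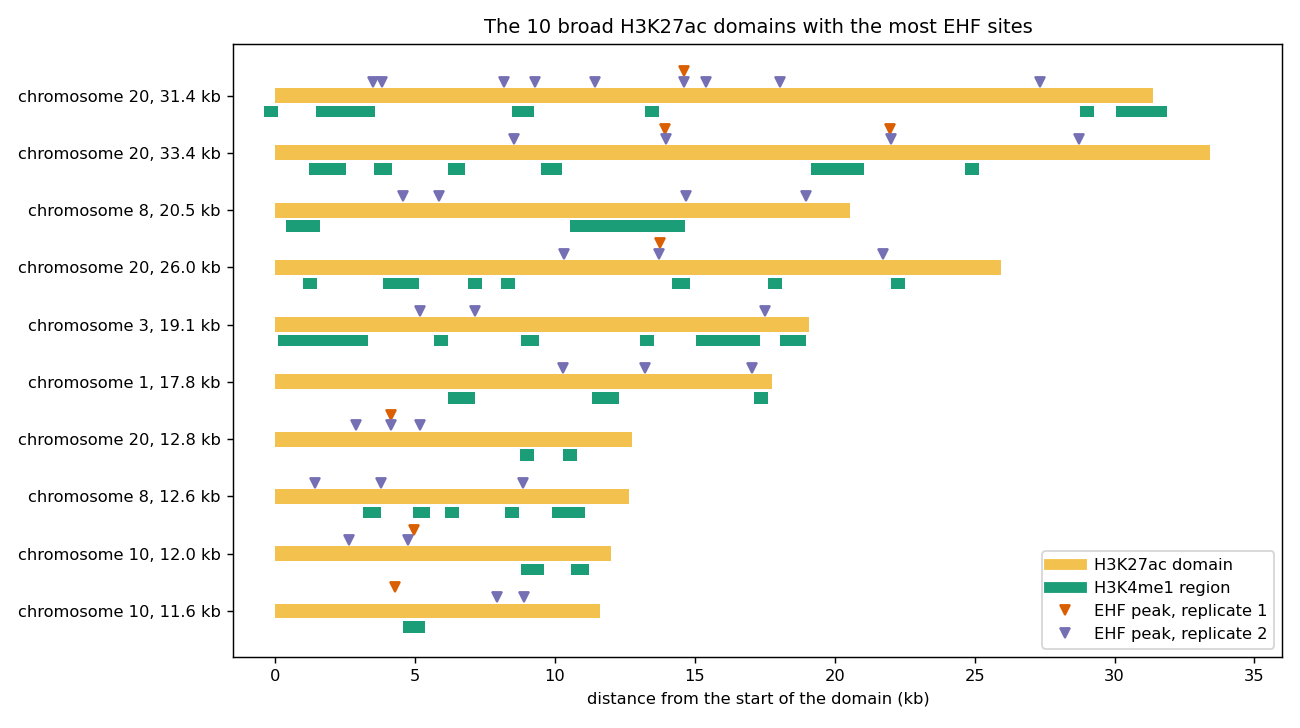
The 10 domains with the most EHF sites, drawn to scale from the start of each (distance in kb), with H3K27ac domains as yellow bars, H3K4me1 regions as green bars below and EHF peak centres as triangles above (orange replicate 1, violet replicate 2). Replicate 2 peaks are spread along the domains, 9 of them in the first, and most fall between H3K4me1 regions.

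The largest number of H3K4me1 regions was in a chromosome 4 domain (11611202 to 11639217), with 8 over 28016 bp that covered 18.7% of it. This domain held a single EHF site, found in both replicates with scores of 8 in replicate 1 and 13 in replicate 2. On chromosome 2, the domain that runs from 54781360 to 54819099 contained 7 such regions, the longest 6668 bp, over 38.1% of its 37740 bp, and 2 EHF peaks of replicate 2. Besides the chromosome 20 domain that starts at 52718771, those with 7 were on chromosome 8 (128217449 to 128241873, 38.1% covered), chromosome 19 (39138132 to 39160866, 39.9%) and chromosome 11 (33709197 to 33731052, 28.9%). Each of these, apart from the chromosome 20 domain, held 1 EHF site, and the chromosome 11 site was present in both replicates. The domain on chromosome 2 at 69988485 to 70015477 had 6 H3K4me1 regions over 29.8% of its length and no EHF peak, and that on chromosome 22 at 30629712 to 30655329 had 6 over 19.4% and 1 replicate 2 peak. Over all domains, coverage rose with the number of H3K4me1 regions (Spearman's rho 0.829 across 534 domains, both measures from the same list). Its median was 6.26% in the 137 domains with 1 region, 15.3% in the 126 with 2, 24.3% in the 92 with 3 and 26.5% in the 61 with 4. Across the domains together the coverage had a median of 12.5% (quartiles 5.21% and 23.8%), and 16 domains were above 50%. The highest, 86.3%, was in a domain of 8578 bp with only 2 H3K4me1 regions, at 67052645 to 67061222 on chromosome 15.

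Some of the widest domains had neither feature. The widest of all, on chromosome 15 at 96859812 to 96903860, was without both at 44049 bp and 98.4 score units per kb, which is above the domain median. On chromosome 4, the domains at 75223786 to 75254029 (30244 bp, 54.2 per kb) and 71088430 to 71114521 (26092 bp, 51.6 per kb) were also empty. That at 73628853 to 73651873 on chromosome 13 was 23021 bp wide with 32.7 per kb. Further empty domains of 14153 to 18575 bp lay on chromosomes 11, 18, 6, 14, 3 and 8, of which the one at 55095813 to 55114257 on chromosome 18 had 119.9 per kb. Across the 66 domains with neither, the median score per kb was 52.6, against 79.2 in the 199 with both. Their median widths were 10203.5 bp with neither and 11421 bp with both. The H3K4me1 library had 12989646 tags and 5.80% of them in called regions, and EHF replicate 1 had 10176290 tags and 0.155%. Weak signal below these calling rules could not be seen.

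Domains were spread over every chromosome that had more than 1 H3K27ac region, that is chromosomes 1 to 22 and X. Chromosomes 1, 2, 3 and 12 held the most, with 50, 47, 46 and 43. As a share of a chromosome's H3K27ac regions, domains ranged from 0.589% on X (6 of 1018, interval 0.217% to 1.28%) to 2.38% on chromosome 12 (43 of 1806, 1.73% to 3.19%), around 1.54% overall. Chromosome 20 was close to the top, at 2.33% (19 of 815, 1.41% to 3.62%). At the low end were chromosome 13 with 0.714% (5 of 700), chromosome 16 with 0.813% (9 of 1107) and chromosomes 14 and 15 with 0.924% and 0.933%. Of the 23 intervals, those of chromosomes 12, 16 and X did not include the overall share, and the remaining 20 did. Per Mb of called H3K27ac, chromosome 20 led with 11.9 domains, chromosome 12 followed with 11.8 and X had 3.35.

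The EHF content of the domains differed between chromosomes. On chromosome 20, 15 of 19 domains held an EHF peak of replicate 2, or 78.9% (54.4% to 93.9%), and 8 held one of replicate 1, or 42.1% (20.3% to 66.5%). On the other chromosomes 194 of 515 domains held a replicate 2 peak, or 37.7% (33.5% to 42.01%), and 73 held one of replicate 1, or 14.2% (11.3% to 17.5%). Densities on chromosome 20 were 122.9 replicate 2 peaks and 32.5 replicate 1 peaks per Mb of domain, against 40.1 and 12.4 in domains elsewhere. A few domains held most of these peaks, as 22 of the 34 replicate 2 peaks were in the 5 domains with at least 3 EHF sites. The other 14 domains of chromosome 20 had 73.9 replicate 2 peaks and 24.6 replicate 1 peaks per Mb. Narrower regions of chromosome 20 were also dense, with 87.5 and 30.4 peaks per Mb in replicates 2 and 1. The ratio of domains to narrower regions there was 1.40 in replicate 2 (0.928 to 2.07) and 1.07 in replicate 1 (0.456 to 2.24), both intervals including equality. The 5 domains were chosen by their EHF sites, so leaving them out lowers the density in domains by construction. The values of the other 14 domains therefore give no direction against narrower regions. Elsewhere the ratio was 0.782 in replicate 2 (0.685 to 0.890) and 0.872 in replicate 1 (0.681 to 1.10). EHF density was thus high on chromosome 20 in narrower regions as well as in domains.

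Chromosomes 4 and X were at the other end. The 31 domains of chromosome 4 held 7 EHF peaks of replicate 2 and 1 of replicate 1 over 450.6 kb, or 15.5 and 2.22 per Mb. The 6 domains of X, 101.9 kb in all, held none of either replicate. Taken as fewer than 3 counts, a count of 0 over that length allows up to 29.4 peaks per Mb, and the narrower regions of X had 25.5 per Mb in replicate 2 and 7.71 in replicate 1. Chromosome 6 had 6 replicate 2 peaks in 26 domains. H3K4me1 was present in most domains of every chromosome except 13, and its coverage of domain bases ranged from 1.13% on chromosome 13, where 1 of 5 domains held an H3K4me1 region, to 32.6% on chromosome 16, where all 9 did. Next to chromosome 13 the lowest were X with 6.31%, 21 with 8.14%, 4 with 8.59% and 9 with 9.41%. Narrower regions of these chromosomes had 5.63% on X, 10.8% on 21, 8.54% on 4 and 10.7% on 9. On chromosomes 10 and 18 the domains were well below the narrower regions, with 10.6% in domains against 15.7% on chromosome 10 and 11.6% in domains against 22.6% on chromosome 18. On chromosomes 16 and 19 they were above, with 32.6% in domains against 19.1% on chromosome 16 and 13.9% against 8.39% on chromosome 19. Over all chromosomes the coverage was 15.6% in domains and 15.3% in narrower regions.

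**Figure D5:**
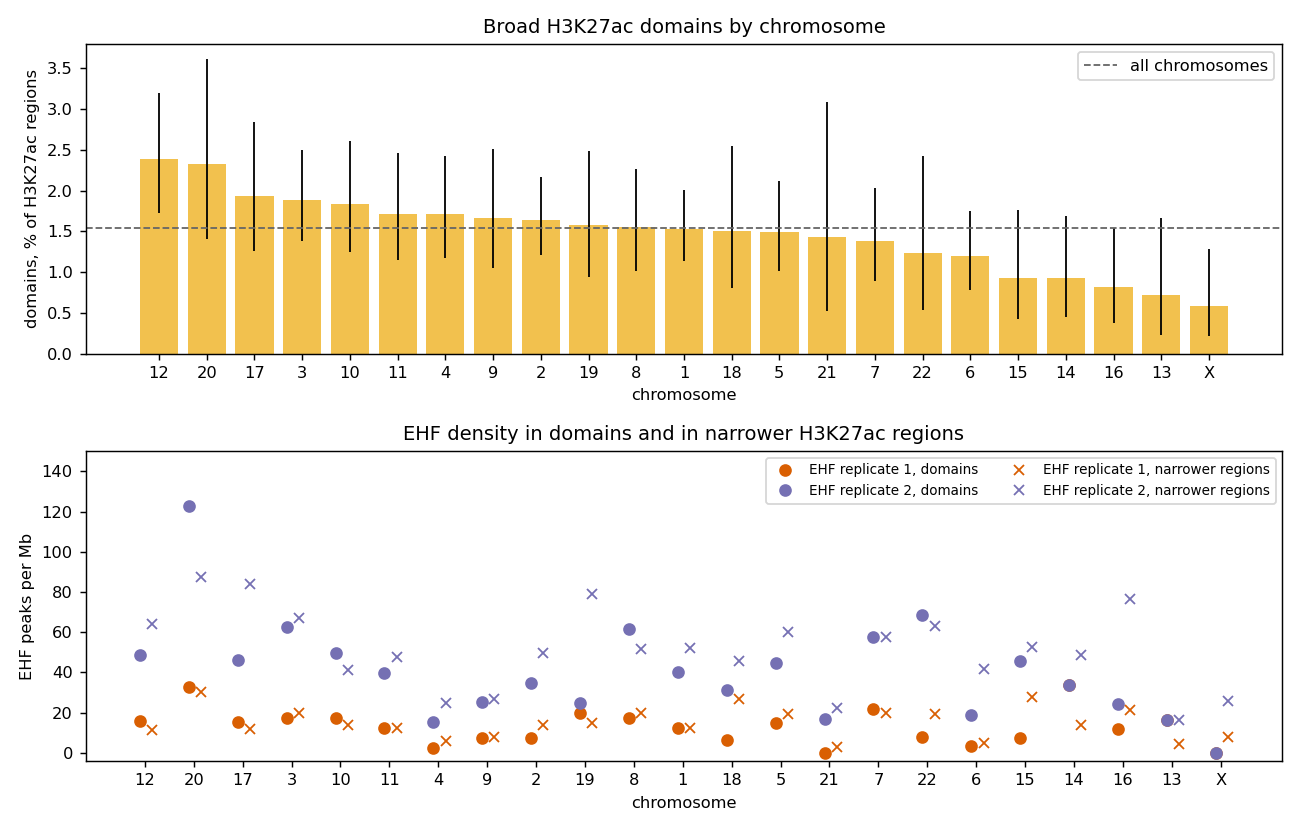
Domains as a percentage of the H3K27ac regions of each chromosome with exact 95% binomial intervals (top; dashed line, 1.54% over all chromosomes), and EHF peaks per Mb in domains (circles) and in narrower regions (crosses) by replicate (bottom), with chromosomes in the order of the top panel. Chromosome 20 has the highest EHF density in domains in replicate 2, at 122.9 per Mb, while chromosome X has no EHF peak in its 6 domains.

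Domains often had H3K27ac neighbours. The gap to the nearest other H3K27ac region had a median of 2345.5 bp for domains and 8899 bp for narrower regions, with 4059 bp for regions of 4000 to under 8000 bp. The nearest other domain was a median of 393970 bp away, and 155 domains (29.0%) had another within 50000 bp. Joined across such gaps they formed 59 pairs, 11 groups of 3 and 1 group of 4, while 379 stood alone. The group of 4 was at 70380895 to 70463492 on chromosome 17. Its domains added up to 49.8 kb of an 82.6 kb span, with 13 H3K4me1 regions and 1 EHF site found in both replicates. On chromosome 20, a group of 3 (52718771 to 52792287) contained 11 regions of H3K4me1 together with 6 EHF sites, 2 of them in both replicates. Another at 171842946 to 171877253 on chromosome 3 was nearly continuous, with 94.8% of its 34.3 kb in domains, and held 7 H3K4me1 regions and 4 EHF sites, 1 of them in both replicates. Groups of 3 on chromosome 11 (129236078 to 129311192) and chromosome 2 (161060209 to 161105560) held no EHF peak, with 5 and 10 H3K4me1 regions. A pair at 46636644 to 46698396 on chromosome 17, 99.2% of whose 61.8 kb was in domains, had no H3K4me1 region at all and 2 EHF sites, 1 of them in both replicates.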

How the data were processed

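Measurements were ChIP-seq interval lists of Calu-3 cells. Per the submitters' processing notes, Bowtie 1.0.0, HOMER 1.2 and the build hg19 were used. Per the file headers, HOMER findPeaks called each library alone against an input at a false discovery rate of 0.01, requiring 4-fold over input (Poisson p of 1e-04), with fixed-size peaks for EHF and stitched 500 bp windows for the marks. The stitching sets the width on which the domains rest. The deposited score is the authors' tag count per interval, scaled to 10000000 tags and rounded. Depth per the file headers was 10176290 and 8418631 tags for EHF replicates 1 and 2, 12989646 for H3K4me1 and 21426939 for H3K27ac.

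Overlaps of at least 1 bp were counted in Python 3.11.15 with pandas 2.3.3 and numpy 2.4.6, and exact intervals came from scipy 1.17.1. Shares have exact (Clopper-Pearson) and density ratios exact conditional 95% intervals. The overlap and ratio functions were tested on simulated data. An EHF site of either replicate counts overlapping peaks of the replicates as 1. Named domains were the 10 with most EHF sites, the 10 with most H3K4me1 regions, the 10 widest with neither, the longest, and those with at least 2 sites of both replicates. Domain groups, the chromosome 15 domain with the highest coverage and the domains of very high score per kb on chromosome 17 were named after their values were seen. Other width limits, overlap rules, replicate choices and mergers of regions were tried as alternatives. The domains, classes and comparisons were chosen with earlier results of these data known. The reference annotation at hand is not of the build of the lists, so genes and sequences were not used here. The input libraries were not analysed here.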

Additional observations from a re-analysis of the deposited data

How the results depend on the processing

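Of 49 alternative values, 25 stayed within the 95% interval of the reported value (for coverage, equal to it at 3 digits), 23 moved and 1 reversed. Domains per Mb of called H3K27ac, in another unit than the reported share, were counted as moved by rule. The comparison with regions of 4000 to under 8000 bp, the within-chromosome ratios and the values without chromosome 20 were chosen after seeing the data. The reversal was the EHF density ratio, 0.819 with either replicate and 1.06 with sites of both replicates, whose cause was not tested. It was 0.923 when replicate 2 was cut to its top-scoring peaks, equal in number to the replicate 1 list, 0.932 against regions of 4000 to under 8000 bp, and 0.837 and 0.909 without replicate 1 and without replicate 2. The share of domains with EHF was 34.2% at a width of at least 6000 bp (1165 domains), 47.4% at 10000 bp (302 domains), 24.2% with replicate 2 so cut, 11.4% for sites of both replicates, and 39.1% and 15.2% without replicate 1 and without replicate 2. The share with H3K4me1 was 77.7% at 6000 bp and 69.7% with H3K4me1 scores at or above the median. The H3K4me1 density ratio, 0.714, became 0.763 at 6000 bp, 0.648 at 10000 bp, 0.764 with H3K27ac merged across gaps of up to 1000 bp, 0.808 by centre, 0.788 with the higher scores, 0.643 with H3K4me1 merged and 0.810 against regions of 4000 to under 8000 bp. H3K4me1 coverage, 15.6%, became 16.3%, 14.3%, 16.1%, 13.1% and 17.6% at 6000 bp, at 10000 bp, with H3K27ac merged, with the higher scores and with H3K4me1 merged. Chromosome 12 led the shares in every count of domains per region, with 4.21% at 6000 bp, and chromosome 20 led per Mb with 11.9. The low end was less stable, as chromosome 16 in place of X had the lowest share at 6000 bp (1.54%) and at 10000 bp (0.271%). Leaving out a stretch of chromosome 17 that holds 2 domains, with 354 and 199.7 score units per kb, moved none of these results. EHF replicate 1, with 10176290 tags against 8418631 in replicate 2, had 0.155% of tags in peaks against 0.740%, and what sets this difference was not tested. No model was fitted to the libraries. No paired analysis was possible because there is no other condition to pair and each mark has 1 library.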
